A study of Mus musculus with 6 samples.

Results

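Genes of lipid making and lipid storage were examined in the livers of CCl4-injured mice with and without a hepatocyte deletion of *Med23*. The set held 42 genes, chosen by name for their place in fatty acid synthesis, elongation and desaturation, triglyceride synthesis, the lipid droplet coat, lipolysis and very low density lipoprotein (VLDL) assembly. All 42 had a row among the 24346 genes of the expression table. Of these, 39 passed the filter on low values (a mean of at least 0.5 FPKM over all libraries) and were tested among 11956 genes. *Mogat1*, *Cidea* and *Pnpla3* did not pass.

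RNA from whole liver was sequenced in 6 male C57/BL6 mice aged 8 weeks, with 1 library per mouse. The control group was 3 med23f/f mice, which carry the floxed allele and are labelled wt. The other group was 3 med23Δli mice, in which *Albumin*-cre was crossed onto the floxed allele to delete *Med23* in hepatocytes, so the other cells of the whole liver samples were not targeted. Both groups received a single intraperitoneal injection of CCl4, a hepatocyte toxin, at 0.6 μl per g body weight in sunflower oil and were killed at 24 h. No uninjured liver was compared, so each value below describes injured liver. For the same acute injury, the paper reports scarce necrosis, fewer apoptotic cells and lower serum liver enzymes in the deletion group than in controls. Damage in the sequenced livers was not tested, so deletion and degree of damage are not told apart in any comparison below.

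In the liver, fatty acids are built from citrate-derived acetyl-CoA, lengthened and desaturated, and joined to glycerol phosphate to give triglyceride. Triglyceride is stored in cytosolic lipid droplets, which are coated by perilipins and enlarged by CIDE proteins, or is loaded onto apolipoprotein B in the endoplasmic reticulum and secreted as VLDL. Lipases release the stored fatty acids again, and insulin, SREBP-1c and ChREBP are the best known activators of the synthetic genes.

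The targeted gene did not separate the groups. *Med23* stood at 3.42, 2.97 and 4.14 FPKM in the med23f/f livers. Livers labelled med23Δli held 3.40, 3.40 and 2.91 FPKM. The part of the gene that was removed could not be read from gene-level values, so the groups rest on their labels. Hepatocyte markers were abundant in every library, with 0 of 6 called different, and *Alb* lay between 12624 and 22376 FPKM. All 4 endothelial markers fell, with summed levels of 68.1 to 101 FPKM in the med23f/f livers and 35.4 to 37.8 FPKM in the med23Δli livers, and of their calls that of *Pecam1* was lost in 1 of the 6 fits that left out a library (adjusted p = 0.0515). The pericentral hepatocyte list summed to 459 to 592 FPKM against 904 to 1070 FPKM, and 2 of its 7 genes, *Cyp2e1* and *Cyp1a2*, rose. *Cyp2e1* alone went from a mean of 254 to 590 FPKM, while *Rhbg* lay below all controls (2.46 and 1.40 FPKM, not called) and *Glul* overlapped. Of 4 stellate cell markers 1, *Des*, fell, a call that held in 1 of the 6 fits that left out a library (adjusted p up to 0.149), and none of the 5 macrophage, 2 neutrophil or 3 cholangiocyte markers tested was called. Skeletal muscle markers did not exceed 0.103 FPKM in any library.

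Replicate 2 of the med23Δli group stood apart in adipocyte genes. *Plin1*, *Lep* and *Ucp1* were at 2.76, 0.180 and 2.29 FPKM in this library and at 0 in the other 5. *Adipoq*, the fat cell hormone adiponectin, was at 5.65 FPKM there, at 0.0907 FPKM in replicate 3 and at 0 in the other 4 libraries. The list of 10 adipocyte markers summed to 238 FPKM in replicate 2, 48.6 and 50.1 FPKM in replicates 1 and 3, and 68.8 to 80.2 FPKM in the med23f/f livers, and replicate 2 was the highest library for 9 of the 10. Several droplet and lipase genes are also abundant in fat, so values without this library are given beside several of them.

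The groups were compared with limma on log2-transformed values (FPKM + 0.1), and a gene was called at a Benjamini-Hochberg adjusted p under 0.05 over all genes tested. With the 0.1 added, changes of weakly expressed genes come out too small. Of the 39 tested members, 8 (20.5%) were called, against 21.1% of all genes. In the med23Δli livers 3 rose (7.69%, against 11.6% of all genes) and 5 fell (12.8%, against 9.48%). With 1 library left out 0 to 2 rose and 2 to 10 fell. There were 0 higher without med23f/f replicate 2 or any 1 of the med23Δli livers, 10 lower without med23f/f replicate 3 and 2 lower without med23Δli replicate 1 or 3. Counts over all genes are not given for these fits, so it cannot be said whether these shifts are particular to the members. Past 2-fold lay 4 members, 1 higher and 3 lower, where the shares of all genes were 7.9% in either direction, 4.45% higher and 3.45% lower. The libraries of the groups did not overlap for 13 members (33.3%, against 43.7% of all genes): 3 lay above the controls (all genes 23.3%) and 10 below (25.6%, all genes 20.4%). The median log2 fold change was -0.048 over the members and 0.024 over all genes.

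By role, the genes that fell were *Plin2* and *Cidec* of the droplet, *Gpam* of triglyceride synthesis, and *Mttp* and *Tm6sf2* of VLDL assembly. *Lpin1*, *Me1* and *Elovl5* rose. None of the 3 regulators and 6 lipolysis genes tested was called, and 1 of 6 fatty acid synthesis genes and 1 of 10 elongation and desaturation genes was.

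**Figure D1:**
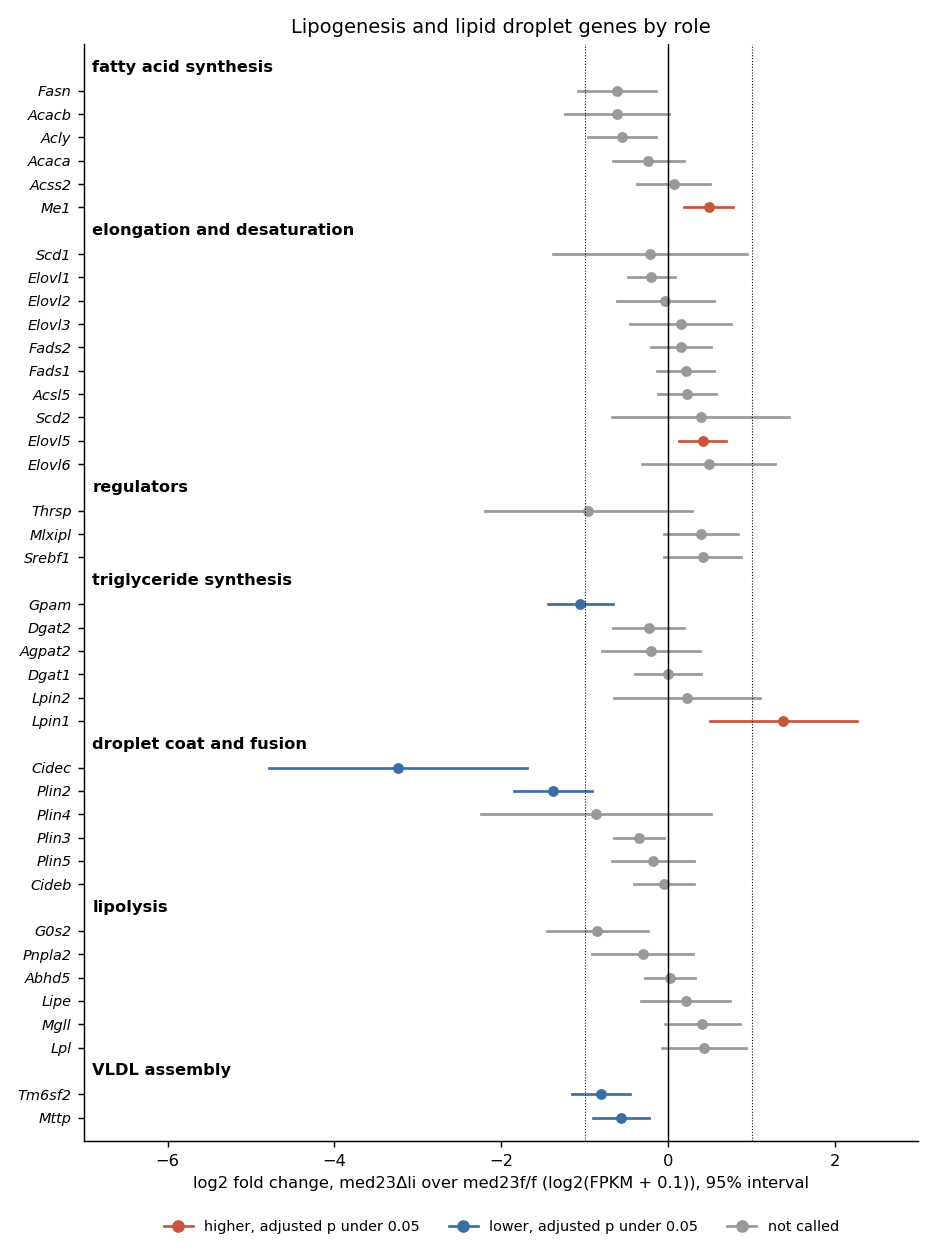
Log2 fold change of the 39 tested genes on the log2(FPKM + 0.1) scale (x axis, med23Δli over med23f/f, 3 livers each), grouped by role. Points are limma estimates, bars are 95% intervals and dotted lines mark 2-fold. *Cidec*, *Plin2* and *Gpam* lie below the lower 2-fold line and *Lpin1* above the upper one.

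The promoters of the 4 genes past 2-fold are shown here, because the factors that drive lipid genes are known by the short motifs they bind. RefSeq (GRCm38.p6) gave windows from 250 bases before to 50 after the start site for 33 of the 42 members, 46 windows in all, and the first listed window of each gene is printed 5′ to 3′ on the gene's own strand. Capitals mark matches, on either strand, to the E-box CACGTG, to CCAAT, to the ROR element NTAGGTCA, to the sterol regulatory element TCACNCCAC or to a direct repeat of AGGTCA spaced by 1 base. All 4 windows lie on the minus strand, at chr4:86670010-86670309 for *Plin2*, chr6:113435711-113436010 for *Cidec*, chr19:55127189-55127488 for *Gpam* and chr12:16610917-16611216 for *Lpin1*.
*Plin2*: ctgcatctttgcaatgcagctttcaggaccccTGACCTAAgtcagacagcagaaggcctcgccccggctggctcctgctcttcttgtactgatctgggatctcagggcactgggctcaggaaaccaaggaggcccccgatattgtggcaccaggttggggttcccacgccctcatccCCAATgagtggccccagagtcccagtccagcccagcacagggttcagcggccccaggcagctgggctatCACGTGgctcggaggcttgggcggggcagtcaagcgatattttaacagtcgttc
*Cidec*: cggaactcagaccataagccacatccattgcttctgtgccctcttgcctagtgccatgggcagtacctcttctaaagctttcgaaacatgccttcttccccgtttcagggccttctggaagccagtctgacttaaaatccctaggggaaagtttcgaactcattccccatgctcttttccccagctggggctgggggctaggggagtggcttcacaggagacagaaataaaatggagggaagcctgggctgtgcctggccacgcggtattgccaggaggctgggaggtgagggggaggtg
*Gpam*: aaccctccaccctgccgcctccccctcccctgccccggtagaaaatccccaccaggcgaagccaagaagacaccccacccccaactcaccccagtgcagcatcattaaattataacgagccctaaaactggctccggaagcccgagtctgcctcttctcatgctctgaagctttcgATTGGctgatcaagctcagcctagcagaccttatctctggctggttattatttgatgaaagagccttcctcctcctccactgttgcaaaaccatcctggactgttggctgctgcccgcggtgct
*Lpin1*: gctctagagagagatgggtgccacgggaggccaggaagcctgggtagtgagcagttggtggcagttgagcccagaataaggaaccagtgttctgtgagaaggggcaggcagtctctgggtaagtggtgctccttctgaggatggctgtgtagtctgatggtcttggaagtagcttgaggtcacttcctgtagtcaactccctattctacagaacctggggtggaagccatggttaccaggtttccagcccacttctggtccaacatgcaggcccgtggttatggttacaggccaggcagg
The *Plin2* window held a ROR element, a CCAAT box and an E-box that spans the start site, the *Gpam* window held a CCAAT box in reverse, and the *Cidec* and *Lpin1* windows held none of the 5 motifs. Over the members' windows the E-box was present in 13.0%, against 7.15% of all 32851 mouse promoter windows and 10.1% of the 11640 of tested genes. CCAAT was in 43.5%, against 37.4% of all and 37.5% of tested genes. The sterol regulatory element was in 2.17% of the members' windows, against 1.24% and 1.25%. The ROR element was also in 2.17%, which lies between the 2.59% of all windows and the 2.08% of those of tested genes, and its single match was the *Plin2* window. The direct repeat was in 0 member windows, against 0.0396% of all and 0.0516% of tested genes. These are matches of letters in a short window and show no binding.

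Droplet coat and fusion genes held the largest decreases of the set. *Plin2* (chr4:86648386-86670060, minus strand, mm10) encodes perilipin 2, the main coat protein of liver lipid droplets, and was the most abundant member in both groups. Its level was 2156, 2540 and 1903 FPKM in the med23f/f livers and 914, 992 and 648 FPKM in the med23Δli livers. Every med23Δli liver lay below every control, and the mean fell from 2200 ± 321 to 851 ± 180 FPKM (SD, n = 3 each), 2.58-fold. The log2 fold change was -1.38 ± 0.20 (SE), with an adjusted p of 0.00579 (limma), and the call held with any 1 library left out (-1.50 to -1.20). In whole liver RNA, fewer cells of a type and less RNA per cell cannot be told apart.

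*Cidec* (chr6:113424634-113435760, minus strand), whose product fuses small droplets into large ones, had the largest fold change of the 39. It stood at 19.2, 77.6 and 46.7 FPKM in the med23f/f livers and at 4.99, 9.46 and 1.63 FPKM in the med23Δli livers. The groups did not overlap although the controls alone spanned a wide range, and the highest med23Δli value was that of replicate 2, the library with adipocyte markers. The means were 47.8 ± 29.2 and 5.36 ± 3.93 FPKM, 8.93-fold apart, with a log2 fold change of -3.24 ± 0.67 and an adjusted p of 0.0161. Without replicate 2 of med23Δli the log2 fold change was -3.80, with an adjusted p of 0.0223. The call was lost without med23Δli replicate 1 (-3.34, adjusted p = 0.0511) or 3 (-2.56, adjusted p = 0.0502), and without med23f/f replicate 2 the change was -2.78.

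The other droplet genes were not called. *Cideb*, the hepatocyte member of the CIDE family, was at 132, 122 and 97.6 FPKM against 124, 110 and 104 FPKM, and its log2 fold change of -0.048 had a 95% interval of -0.41 to 0.31. *Plin3*, a perilipin that cycles between cytosol and droplets, was at 63.0, 62.6 and 77.0 FPKM in the med23f/f livers and at 52.5, 52.4 and 53.5 FPKM in the med23Δli livers. These *Plin3* values did not overlap, and the log2 fold change was -0.35 with an adjusted p of 0.0950. *Plin5*, the perilipin linked to mitochondria, gave -0.18 (95% interval -0.68 to 0.31), and *Plin4*, mainly an adipocyte and muscle perilipin, gave -0.86 (-2.24 to 0.51) at levels of 0.621 to 5.47 FPKM. Without med23Δli replicate 2 *Plin4* was at -1.33 (adjusted p = 0.197). *Cidea*, abundant in brown fat, stayed between 0.0600 and 0.874 FPKM, with its highest value in med23Δli replicate 2.

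**Figure D2:**
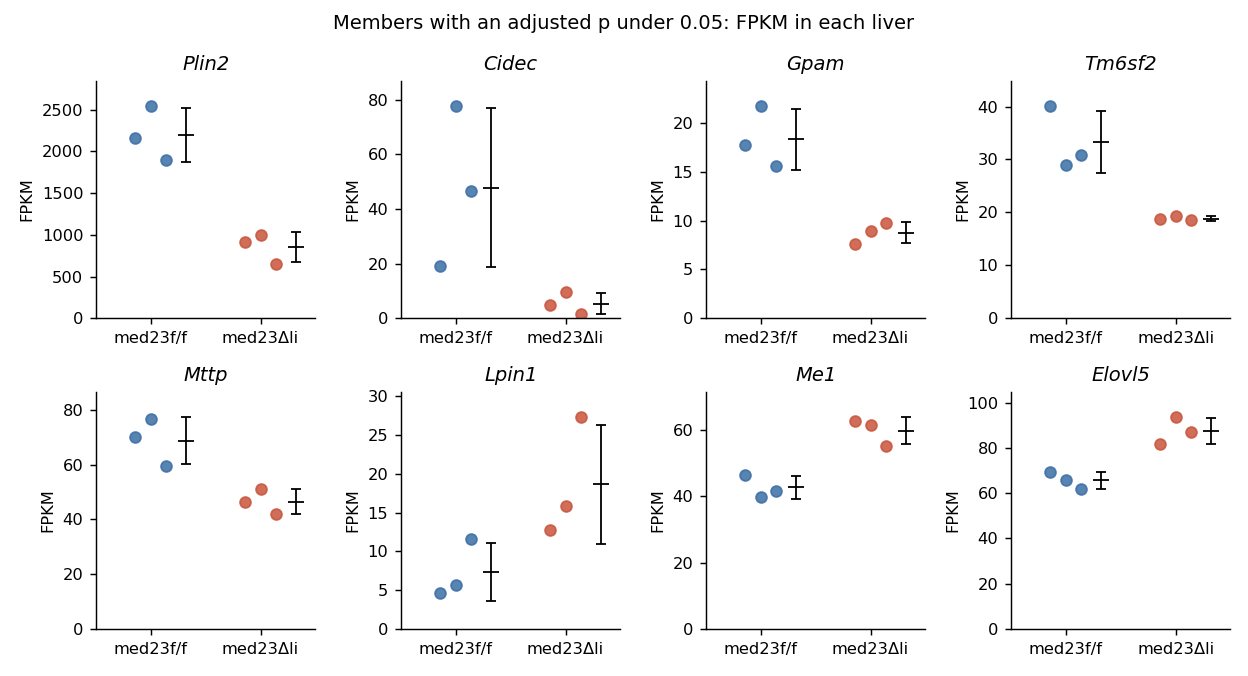
FPKM in each liver (y axis, linear from 0) for the 8 called genes, 3 med23f/f and 3 med23Δli livers per gene. Points are single livers, with the group mean ± SD beside them. *Plin2*, *Cidec*, *Gpam*, *Tm6sf2* and *Mttp* lie lower and *Lpin1*, *Me1* and *Elovl5* higher in all 3 med23Δli livers.

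Triglyceride synthesis held 1 gene that fell and 1 that rose. *Gpam* (chr19:55067268-55127238, minus strand) encodes the mitochondrial glycerol-3-phosphate acyltransferase, which attaches the first fatty acid to glycerol phosphate. Its levels were 17.8, 21.7 and 15.6 FPKM in the med23f/f livers and 7.60, 8.94 and 9.78 FPKM in the med23Δli livers, with no overlap. *Gpam* fell 2.09-fold, from 18.4 ± 3.11 to 8.78 ± 1.10 FPKM, with a log2 fold change of -1.05 ± 0.17 and an adjusted p of 0.00720. The call held with any 1 library left out, but the change was under 2-fold without med23f/f replicate 2 (-0.92) or med23Δli replicate 1 (-0.95).

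*Lpin1* (chr12:16535669-16610966, minus strand) encodes lipin 1, a phosphatidate phosphatase that makes the diacylglycerol used for triglyceride, and that also acts in the nucleus with transcription factors. It was at 4.62, 5.66 and 11.6 FPKM in the med23f/f livers and at 12.7, 15.9 and 27.3 FPKM in the med23Δli livers. The groups did not overlap, but the highest control and the lowest med23Δli liver lay close together. The mean rose 2.56-fold, from 7.29 ± 3.75 to 18.6 ± 7.68 FPKM, with a log2 fold change of 1.38 ± 0.38 and an adjusted p of 0.0389. This call held in 1 of the 6 fits that left out a library, the one without med23f/f replicate 3 (adjusted p = 0.00981), and reached an adjusted p of 0.126 in the others.

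No change was called for the other triglyceride enzymes. *Dgat2* and *Dgat1*, which add the last fatty acid, gave log2 fold changes of -0.23 (95% interval -0.66 to 0.20) and -0.0055 (-0.40 to 0.39). *Dgat2* was among the most abundant members, with a mean of 166 FPKM in the med23f/f and 144 FPKM in the med23Δli livers. It was highest in med23Δli replicate 2, without which its change was -0.43 (adjusted p = 0.141). *Agpat2*, which adds the second fatty acid, was at 93.9, 107 and 52.7 FPKM against 64.6, 72.2 and 73.8 FPKM. Its log2 fold change was -0.21, and ran from -0.52 (adjusted p = 0.0325) without med23f/f replicate 3, its lowest library, to -0.0050 without med23f/f replicate 2. Without any library other than med23f/f replicate 3 the adjusted p was at least 0.623. *Lpin2*, the other main liver lipin, ranged from 26.3 to 75.4 FPKM in the med23f/f livers alone and gave 0.22 (-0.65 to 1.10). *Mogat1*, a monoacylglycerol acyltransferase, was at or below 0.222 FPKM throughout.

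Within the families, shares were worked out after the values above had been seen, and are given without a test. *Gpam* made up 27.1 to 34.5% of the summed FPKM of the 4 glycerol-3-phosphate acyltransferase genes in the med23f/f livers and 11.9 to 15.9% in the med23Δli livers. The share of *Gpat3*, an enzyme of the endoplasmic reticulum, was 8.75 to 10.6% against 15.7 to 18.3%, and that of *Gpat4* was 55.3 to 63.5% against 66.8 to 72.0%. The summed level of the family overlapped, at 57.5 to 63.0 FPKM and 61.3 to 66.3 FPKM. *Lpin1* supplied 12.7 to 13.4% of lipin FPKM against 16.7 to 34.6%, and *Lpin2* supplied 73.2 to 82.5% against 45.0 to 68.1%. *Cidec* supplied 12.7 to 38.8% of CIDE FPKM against 1.54 to 7.87%. *Plin2* kept most of the perilipin FPKM, with 94.7 to 96.3% against 89.5 to 92.9%.

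**Figure D3:**
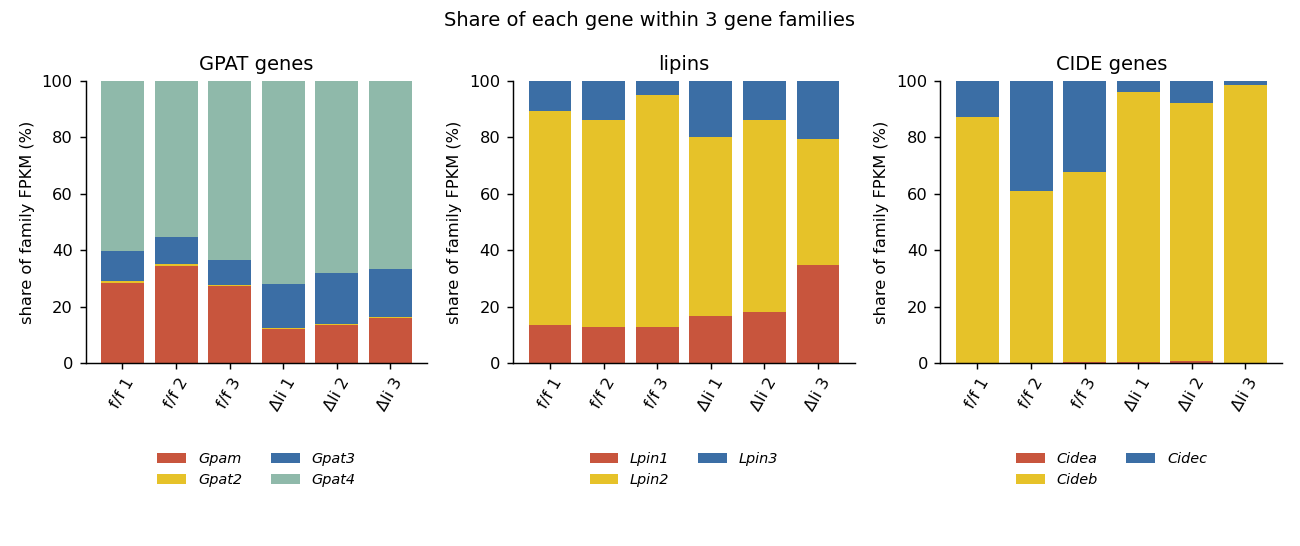
Share of each gene in its family's summed FPKM (y axis, %) in the 6 livers (x axis, f/f and Δli replicates 1 to 3), for the glycerol-3-phosphate acyltransferase, lipin and CIDE genes. *Gpam* takes at least 27.1% in the med23f/f livers and at most 15.9% in the med23Δli livers, and *Cidec* at least 12.7% and at most 7.87%.

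Both VLDL assembly genes fell. *Tm6sf2* (chr8:70072924-70080066, plus strand), an endoplasmic reticulum protein needed to load lipid onto VLDL, was at 40.0, 29.0 and 30.9 FPKM in the med23f/f livers and at 18.7, 19.3 and 18.5 FPKM in the med23Δli livers. The 3 med23Δli livers were nearly equal and lay below all controls. The means were 33.3 ± 5.89 and 18.8 ± 0.416 FPKM, a 1.77-fold decrease, with a log2 fold change of -0.81 ± 0.15 and an adjusted p of 0.0117. The call was lost without med23Δli replicate 1 (adjusted p = 0.0561) or 3 (adjusted p = 0.0505).

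*Mttp* (chr3:138089854-138144968, minus strand), the microsomal transfer protein that carries triglyceride to apolipoprotein B, was at 70.0, 76.7 and 59.7 FPKM against 46.3, 51.1 and 41.9 FPKM. All 3 med23Δli livers again lay below the controls, with means of 46.4 ± 4.59 and 68.8 ± 8.58 FPKM, a 1.48-fold decrease. The log2 fold change was -0.56 ± 0.15 with an adjusted p of 0.0326, and the call held in 1 of the 6 fits that left out a library (without med23f/f replicate 3, adjusted p = 0.0167; in the others up to 0.111).

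Among the fatty acid synthesis genes, *Me1* rose and the others were not called. *Me1* (chr9:86581371-86695953, minus strand), the cytosolic malic enzyme that supplies NADPH, was at 46.6, 39.7 and 41.7 FPKM in the med23f/f livers and at 62.8, 61.4 and 55.1 FPKM in the med23Δli livers. The groups did not overlap, and the 1.40-fold rise from 42.7 ± 3.52 to 59.8 ± 4.10 FPKM gave a log2 fold change of 0.49 ± 0.13 and an adjusted p of 0.0338. The call held in 2 of the 6 fits that left out a library.

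*Fasn*, the fatty acid synthase itself, was at 33.8, 26.2 and 20.8 FPKM in the med23f/f livers and at 14.4, 19.3 and 18.5 FPKM in the med23Δli livers. *Acly*, which makes acetyl-CoA from citrate, was at 61.6, 42.8 and 41.2 FPKM against 31.8, 30.6 and 34.9 FPKM. For both genes the med23Δli values lay below all controls, but neither passed the test, with log2 fold changes of -0.61 (adjusted p = 0.0671) and -0.56 (adjusted p = 0.0572). Without med23f/f replicate 3 the adjusted p was 0.0242 for *Fasn* and 0.0354 for *Acly*, and without any other single library it was 0.118 to 0.217 and 0.0666 to 0.171. *Acly* also passed with median centring (adjusted p = 0.0487) and quantile normalization (adjusted p = 0.0341). The carboxylases that make malonyl-CoA, *Acaca* and *Acacb*, gave -0.24 (95% interval -0.66 to 0.19) and -0.61 (-1.23 to 0.015), and *Acss2*, which activates acetate, gave 0.069 (-0.37 to 0.51).

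Of the elongation and desaturation genes, *Elovl5* (chr9:77917364-77984519, plus strand), an elongase of polyunsaturated fatty acids, was the single call. It was at 69.2, 65.8 and 62.0 FPKM against 81.9, 93.7 and 87.3 FPKM, with no overlap and a 1.33-fold rise in the mean from 65.7 ± 3.60 to 87.6 ± 5.90 FPKM. The log2 fold change was 0.41 ± 0.12 with an adjusted p of 0.0481, and the call held in 0 of the 6 fits that left out a library (adjusted p 0.0606 to 0.175).

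*Scd1*, the main liver stearoyl-CoA desaturase, varied more between livers than between groups. Its levels were 377, 106 and 174 FPKM in the med23f/f livers and 89.6, 203 and 241 FPKM in the med23Δli livers, and the 95% interval of its log2 fold change (-0.22) ran from -1.38 to 0.94. *Elovl1* was at 41.2, 39.5 and 37.8 FPKM against 36.3, 35.0 and 31.7 FPKM, without overlap, and its log2 fold change of -0.20 had an adjusted p of 0.259. *Fads1* and *Fads2*, the desaturases of polyunsaturated fatty acids, gave 0.21 and 0.16. *Elovl2*, *Elovl3*, *Elovl6*, *Scd2* and the acyl-CoA synthetase *Acsl5* gave values between -0.033 and 0.48 with intervals that include 0.

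The regulators gave no call. *Srebf1*, which encodes SREBP-1, was at 27.8, 19.3 and 20.6 FPKM in the med23f/f livers and at 25.3, 27.8 and 37.4 FPKM in the med23Δli livers (log2 fold change 0.41, 95% interval -0.048 to 0.88). *Mlxipl*, which encodes ChREBP, was at 31.4, 20.3 and 20.5 FPKM against 31.3, 33.4 and 28.3 FPKM (0.39, -0.048 to 0.83), and without med23f/f replicate 1, its highest control, the change was 0.60 with an adjusted p of 0.0331 (at least 0.228 without any other single library). *Thrsp*, the lipogenic cofactor Spot 14, was at 13.8, 23.0 and 4.87 FPKM against 4.36, 4.87 and 9.69 FPKM. Its groups overlapped through med23f/f replicate 3, and the log2 fold change of -0.96 (adjusted p = 0.229) became -1.57 (adjusted p = 0.0238) without that library and -0.47 without med23f/f replicate 2. Without any other single library the adjusted p was 0.192 to 0.543.

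None of the lipolysis genes was called. *G0s2*, an inhibitor of adipose triglyceride lipase, came nearest, at 176, 209 and 99.7 FPKM in the med23f/f livers and 85.1, 95.6 and 77.1 FPKM in the med23Δli livers. The groups did not overlap, but the lowest control and the highest med23Δli liver were close, and the log2 fold change of -0.85 (95% interval -1.45 to -0.24) had an adjusted p of 0.0543. Without med23f/f replicate 3 the adjusted p was 0.00418, and without any other single library 0.108 to 0.159. It also passed with quantile normalization (adjusted p = 0.0213), and without med23Δli replicate 2 the change was -0.93. *Pnpla2*, the lipase that *G0s2* inhibits, was at 31.8, 47.5 and 54.6 FPKM against 36.9, 45.9 and 25.8 FPKM (-0.30, -0.91 to 0.30, and -0.50 without med23Δli replicate 2), and its co-activator *Abhd5* gave 0.023 (-0.28 to 0.32), and -0.029 without med23Δli replicate 2. *Mgll*, the monoglyceride lipase, gave 0.41 (-0.043 to 0.86), and 0.40 without med23Δli replicate 2.

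*Lipe* and *Lpl*, the hormone-sensitive and lipoprotein lipases, are abundant in fat and were highest in med23Δli replicate 2. *Lipe* stood at 7.55 FPKM there and at 3.88 to 5.14 FPKM in the other 5 libraries. Its log2 fold change was 0.21 (95% interval -0.33 to 0.75), and -0.040 without replicate 2. *Lpl* stood at 10.4 FPKM there, at 5.88 and 7.98 FPKM in the other med23Δli livers and at 5.15 to 6.54 FPKM in the controls. Its log2 fold change was 0.43 (-0.072 to 0.93), and 0.23 without replicate 2. *Pnpla3*, a droplet protein of the same family as *Pnpla2*, was under the filter, at 0.625 FPKM in replicate 2 and at most 0.309 FPKM elsewhere. This library was the highest for 12 of the 39 tested members (30.8%), against 20.1% of all genes tested, and the part of its adipocyte signal in these values was not tested.

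**Figure D4:**
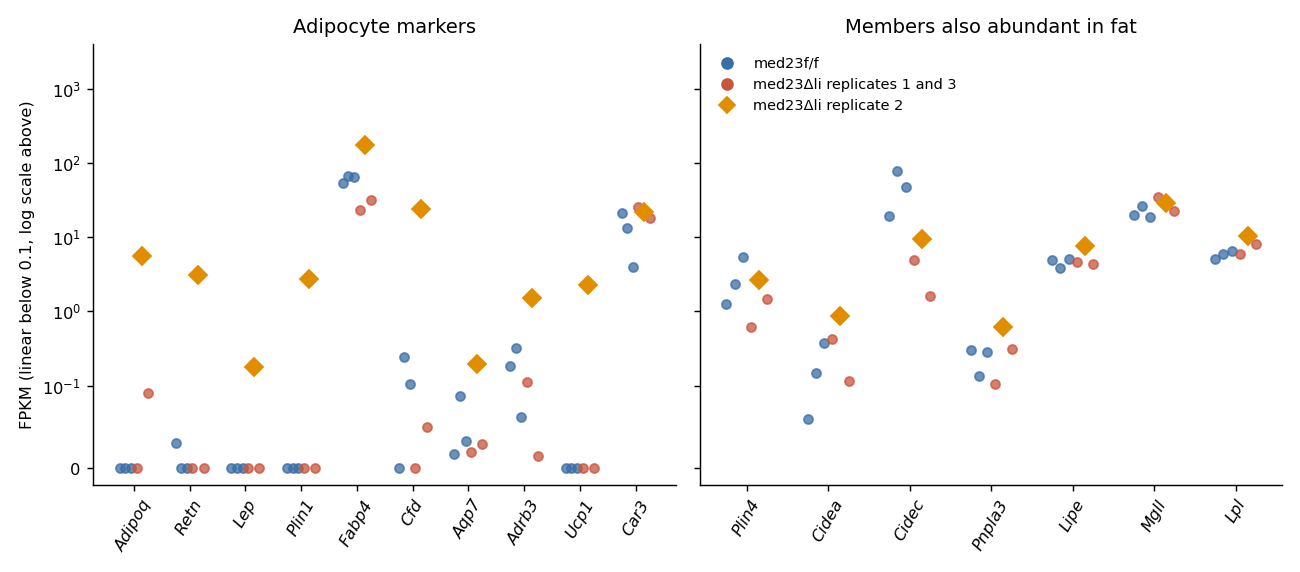
FPKM (y axis, linear below 0.1 and log above) of 10 adipocyte markers and of 7 droplet and lipase genes that fat also expresses, with 1 point per liver and med23Δli replicate 2 as diamonds. Replicate 2 is highest for 9 of the 10 markers, while its *Cidec* value of 9.46 FPKM lies below all 3 controls.

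Ordered by mean FPKM, which is scaled by transcript length, the members spanned a wide range. In the med23f/f livers *Plin2* (2200 FPKM) was followed by *Scd1* (219 ± 141), *Dgat2* (166 ± 5.11), *G0s2* (162 ± 56.0) and *Cideb* (117 ± 17.5), and the neighbours after *Plin2* did not differ beyond their spread. The first 3 places were the same in the med23Δli livers, while *G0s2* moved from place 4 to 9. *Cidec* moved from place 15 to 35 and *Lpin1* from place 32 to 26 of the 42.

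A second list of 64 genes from the same pathways, none of them members, put the set in context. Of the 58 that passed the filter 13 were called (22.4%, against 21.1% of all genes), 10 higher (17.2%, against 11.6%) and 3 lower (5.17%, against 9.48%). This split was 8 higher and 9 lower with quantile normalization, 8 and 9 without med23f/f replicate 3, then 4 and 0 without med23Δli replicate 1 or 3, and 5 and 2 without med23Δli replicate 2. Over all genes, quantile normalization moved the split from 1384 higher and 1133 lower to 1301 and 1351. Counts over all genes are not given for the fits that left out a library. The groups did not overlap for 26 (44.8%, against 43.7%), and the median log2 fold change was 0.015. The called changes past 2-fold were rises in *Elovl7*, *Pparg*, *Lpin3* and *Vldlr* and falls in *G6pdx* and *Gpihbp1*. *Angptl8* was also lower past 2-fold (log2 fold change -1.31, adjusted p = 0.136), but it was not called and its groups overlapped.

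*Pparg*, the nuclear receptor that drives fat storage genes, was at 1.08, 1.03 and 1.45 FPKM in the med23f/f livers and at 5.71, 8.56 and 4.60 FPKM in the med23Δli livers. The groups were well apart, with a log2 fold change of 2.28 ± 0.25 and an adjusted p of 0.00237. It is also abundant in fat and was highest in replicate 2, and without that library the change was 2.04. *Elovl7*, an elongase of saturated fatty acids, was at 3.54, 1.62 and 3.70 FPKM against 15.8, 16.5 and 17.2 FPKM, without overlap (log2 fold change 2.53 ± 0.29, adjusted p = 0.00275).

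*Lpin3*, another lipin, was at 3.64, 6.16 and 4.48 FPKM against 15.2, 12.0 and 16.1 FPKM, also without overlap (1.60 ± 0.21, adjusted p = 0.00425). The calls of *Pparg*, *Elovl7* and *Lpin3* held with any 1 library left out. *Vldlr*, a receptor that takes up triglyceride-rich particles, was at 0.625, 0.255 and 1.76 FPKM against 5.67, 3.44 and 4.62 FPKM, all above the controls. Its log2 fold change was 2.55 ± 0.54 with an adjusted p of 0.0170, and the call held in 3 of the 6 fits that left out a library (adjusted p up to 0.0670). The change ran from 1.98 without med23f/f replicate 2 to 3.18 without med23f/f replicate 3.

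*G6pdx*, the NADPH-producing enzyme of the pentose phosphate pathway, was at 10.9, 29.0 and 11.5 FPKM against 4.66, 5.56 and 3.89 FPKM, all below the controls. Its log2 fold change was -1.70 ± 0.36 with an adjusted p of 0.0171, and the call held in 4 of the 6 fits that left out a library (adjusted p up to 0.0720). Its value is uncertain, since its near copy *G6pd2* was listed at 0 in every library and how reads of the pair were divided was not tested. *Gpihbp1*, which holds lipoprotein lipase on capillary endothelium, was at 20.9, 31.4 and 17.5 FPKM against 10.8, 11.0 and 10.9 FPKM. It fell by 1.04 ± 0.21 on the log2 scale (adjusted p = 0.0146), beside the fall of all 4 endothelial markers, and the part of that fall in the value was not tested. The call held in 3 of the 6 fits that left out a library (adjusted p up to 0.0597), and without med23f/f replicate 2 the change was -0.80, under 2-fold. Under 2-fold, *Gpat3* rose by 0.88 (adjusted p = 0.00959), a call that held with any 1 library left out, and *Acsl1*, *Fitm2*, *Hsd17b11*, *Mbtps1* and *Mbtps2* rose by 0.43 to 0.80. These 5 calls held in 1 or 2 of the 6 fits that left out a library, with adjusted p up to 0.191. *Scap*, the SREBP escort protein, fell by 0.96 (adjusted p = 0.0158), and its call held in 4 of the 6 fits.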

How the data were processed

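Whole liver RNA of 6 mice was sequenced as paired ends. Per the labels and the study's methods, the authors checked reads with FastQC, trimmed adapters, aligned them to mm10 with TopHat and computed FPKM (fragments scaled by transcript length and library size) with Cuffdiff. Tool versions and the gene annotation are not given in the sources used here. The deposited table holds FPKM per library, group means, and the authors' own fold changes, p-values and q-values, of which only the per-library FPKM were used (0 value columns were left unmapped). The study's methods give a median read number over the samples, but the depth of each library is unknown, so no counting error can be given. Genes listed at 0 numbered 7628 to 9341 per library. The 3 libraries of a group came from separate mice.

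Genes averaging 0.5 FPKM or more were fitted as log2(FPKM + 0.1) with limma 3.58.1 (trended variance, R 4.3.3) and Benjamini-Hochberg adjustment over 11956 genes. An exact 2-sided permutation test of 3 against 3 cannot go below p = 0.1 and was not used for calls. The fit was tested on simulated data of 11956 genes. It called 50 of 100 genes changed 2-fold, 88 of 100 changed 4-fold and 8 unchanged genes. A gene that was not called is therefore not shown to be unchanged. Named genes were all members, and other pathway genes that were called and past 2-fold, at most the 5 largest in each direction. The 7 called ones under 2-fold are outside this rule, as are *Gpat4* and *Angptl8*, which were not called. All of these were added after their values were seen. The members and lists were chosen with earlier results of these data known. Gene positions are from GENCODE M21 and promoter windows from RefSeq, searched on both strands. Alternatives were other pseudocounts, filters, scalings and variance models, a replicate block and each library left out.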

Additional observations from a re-analysis of the deposited data

How the results depend on the processing

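Counts of members that rose and fell were 3 and 5, and those of the other pathway genes 10 and 3. Pseudocounts of 0.01 and 1 and a filter of 1 FPKM left these 4 counts as they were. In the same order they were 2, 6, 10 and 3 with median centring, 2, 5, 7 and 3 with no filter, 1, 5, 6 and 3 without the variance trend, 2, 7, 8 and 9 with quantile normalization, and 2, 5, 11 and 3 with a robust fit. Leaving out 1 library gave 0 to 2 members higher, 2 to 10 lower, 4 to 8 other genes higher and 0 to 9 lower. The 10 lower came without med23f/f replicate 3 and added *Acly*, *Fasn*, *Thrsp*, *Agpat2* and *G0s2*, and the 2 lower came without med23Δli replicate 1 or 3. Replicate numbers did not pair the samples (deviations of same-numbered livers correlated at -0.022, -0.046 and -0.12), and a fit with the replicate block gave counts of 1, 6, 5 and 3. Over all genes tested, 1384 rose and 1133 fell in the main fit. Those counts were 1356 and 1250 with median centring, 1301 and 1351 with quantile normalization, and 809 and 614 with the block. The other fits are given without counts over all genes. Without a filter, without the trend and in the robust fit the adjusted p of *Lpin1* was 0.0777, 0.0529 and 0.0532. That of *Elovl5* was 0.0564 with median centring, 0.0825 with quantile normalization, 0.0658 without the trend and 0.105 with the block, and that of *Me1* was 0.0730 with the block. *Acly* was gained as lower with both scalings, and *G0s2* with quantile normalization and with the block (adjusted p = 0.0385). *Plin2*, *Cidec*, *Gpam*, *Mttp* and *Tm6sf2* kept their call in 9 of 9 alternatives that used all libraries. No called member changed sign in 120 alternatives, but this says little. The groups of the called members did not overlap, so leaving out a library or changing the pseudocount could not turn a sign. The filter, trend, robust and block settings leave the estimate itself unchanged. Signs turned for 11 members that were not called. *Abhd5* was at -0.0059 with median centring and -0.026 with quantile normalization, and over the fits that left out a library it ran from -0.050 to 0.077. Over the same fits log2 fold changes ran from -0.074 to 0.21 for *Acss2*, -0.29 to 0.14 for *Elovl2*, -0.038 to 0.42 for *Elovl3*, -0.65 to 0.27 for *Scd1*, -0.024 to 0.84 for *Scd2*, -0.080 to 0.68 for *Lpin2*, -0.14 to 0.13 for *Dgat1*, -0.36 to 0.051 for *Plin5*, -0.17 to 0.042 for *Cideb* and -0.040 to 0.36 for *Lipe*. The causes of these shifts were not tested. With 3 livers a group, leaving out a single library made or ended calls over a wide range of changes, up to the 8.93-fold of *Cidec*, and the depth of each library is unknown.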

Other observations

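Ratios between partner genes within a liver were computed after the values had been seen and carry no test. *Elovl5* over *Elovl1* was 1.64 to 1.68 in the med23f/f livers and 2.26 to 2.75 in the med23Δli livers, with little spread among the controls. *Plin2* over *Plin3* was 24.7 to 40.6 against 12.1 to 18.9, and *Plin2* over *Plin5* was 73.3 to 111 against 31.2 to 47.4. *Cidec* over *Cideb* was 0.146 to 0.636 against 0.0157 to 0.0861. *Lpin1* over *Lpin2* was 0.153 to 0.176 against 0.263 to 0.769, *Gpam* over *Gpat4* was 0.427 to 0.625 against 0.165 to 0.239, and *Gpat3* over *Gpat4* was 0.138 to 0.175 against 0.217 to 0.268. The groups overlapped for the other 4 pairs. *Elovl5* over *Elovl2* was 0.475 to 0.847 against 0.701 to 1.02. *G0s2* over *Pnpla2*, the inhibitor over its lipase, was 1.83 to 5.53 against 2.08 to 2.99, *Scd1* over *Scd2* was 83.9 to 137 against 21.1 to 137, and *Fasn* over *Acaca* was 3.84 to 4.59 against 2.77 to 3.84.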
